A study of Mus musculus with 6 samples.

Results

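The histone cluster genes described here are the genes of the H1, H2A, H2B, H3 and H4 histones that lie together in the mouse histone gene clusters and carry symbols beginning with Hist1h, Hist2h, Hist3h or Hist4h. They were selected on their symbol and on measured counts, with a minimum of 15 counts summed over the 6 RNA-Seq libraries of the series. Of the 55453 genes in the table of counts, 70 had such a symbol, and 45 of these reached 15 counts and are called members below. By class they were 5 H1, 10 H2A, 10 H2B, 7 H3 and 13 H4 genes. In the GRCm38 build, 36 of them lay on chromosome 13 between positions 21716422 and 23764406, 6 on chromosome 3, 2 on chromosome 11 and 1 on chromosome 6.

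The libraries were made from bone marrow-derived macrophages (BMDM) of C57BL/6 background, 3 of them labelled PP2A KO and 3 labelled Wild Type, and they are called PP2Ac KO and PP2Ac WT here. PP2Ac KO cells came from LysMcrePP2Acfl/fl mice, in which cre driven by the promoter of lysozyme 2, a gene of the myeloid lineage and not of macrophages alone, removes exon 1 of Ppp2ca, the gene of a catalytic subunit of protein phosphatase 2A. WT mice came from a different source than the floxed line, so the groups were not littermates, and macrophages were grown out of bone marrow with M-CSF or with medium from L929 fibroblasts. The study treated the BMDM of its RNA-Seq with cGAMP, an agonist of STING, while the labels of these samples name no treatment. Biological replicates are described for the cell experiments in general, but the labels do not say whether libraries of 1 genotype came from separate animals, so p-values measure the spread between these libraries only.

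Histones package DNA into nucleosomes, with H2A, H2B, H3 and H4 forming the core and H1 binding the DNA that links one nucleosome to the next. The clustered genes are best known for being transcribed when DNA is replicated, and most of their mRNAs end in a conserved stem-loop instead of a poly(A) tail, which stem-loop binding protein recognizes. RNA selected on poly(A), as in these libraries, therefore samples such mRNAs poorly, although some clustered histone genes are also known to give spliced or polyadenylated mRNAs in cells that have left the cell cycle. A level in these data is thus the level of the poly(A)-selected RNA of a histone gene and not of its total RNA.

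Nearly all the reads counted on members fell on 2 genes. Hist1h1c, which encodes a linker histone, held 257209 of 313774 counts (82.0%), and Hist1h2bc, which encodes an H2B, held 43277 (13.8%). Hist3h2a followed with 3992 counts, Hist1h4i with 1987 and Hist2h2be with 1794, and these 5 together made up 98.2% of the counts. With 3 libraries per genotype, Hist3h2a and Hist1h1d were higher and Hist2h2be was lower in PP2Ac KO in the fit of genotype alone. These were 10.7% of the 28 members tested, where 37.1% of all genes tested changed. Hist1h1c, Hist1h2bc, Hist1h1b, Hist1h4i and Hist1h4h were added to the higher genes once libraries with the same replicate number were compared with each other. That made 7 of the 28 higher, near the 24.4% of all genes tested that were higher in the same fit.

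The ends of the annotated transcripts are shown for the members with the most counts because they bear on what poly(A) selection can capture. In GENCODE M21 transcripts, a stem-loop was searched after the stop codon, on the transcript's own strand, as a perfect inverted repeat of the form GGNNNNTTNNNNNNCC, in which a stem of 6 bases encloses a loop of 4. A poly(A) signal was searched as AATAAA or ATTAAA in the last 50 bases of a transcript, on the same strand. Capitals mark the match, and each line begins with the gene, the element and its position in GRCm38.
Hist1h1c stem-loop (chr13:23739512-23739527, + strand): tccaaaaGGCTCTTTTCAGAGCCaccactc
Hist1h1c poly(A) signal (chr13:23740342-23740347, + strand): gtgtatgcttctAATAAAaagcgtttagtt
Hist3h2a stem-loop (chr11:58955172-58955187, + strand): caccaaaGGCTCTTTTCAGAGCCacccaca
Hist3h2a poly(A) signal (chr11:58956797-58956802, + strand): aggtatatgcccAATAAAataagagtacgt
Hist1h4i stem-loop (chr13:22040966-22040981, - strand): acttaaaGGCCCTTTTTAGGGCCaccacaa
Hist1h4i poly(A) signal (chr13:22040651-22040656, - strand): ggttctgtttacATTAAAagtattctatgc
Hist2h2be poly(A) signal (chr3:96223717-96223722, + strand): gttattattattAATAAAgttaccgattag
Hist1h2bg stem-loop (chr13:23571843-23571858, + strand): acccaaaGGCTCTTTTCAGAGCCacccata

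The stem-loop of Hist1h1c began 24 bases after the stop codon, and its annotated transcript ran on for 840 bases past it, with the poly(A) signal near the end. Hist3h2a had the same arrangement with 1643 bases past the stem-loop, and Hist1h4i with 330. Hist2h2be had a poly(A) signal 2170 bases after its stop codon and no match to the stem-loop. Hist1h2bg, which had the most counts of the members with a stem-loop and no poly(A) signal, had only 155 annotated bases past the stem-loop. The transcript of Hist1h2bc, annotated with 2 exons, matched neither element, which says only that these letters do not occur in the windows searched.

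A stem-loop was found in 33 of the 45 members, between 21 and 58 bases after the stop codon. The same 16 bases, those of Hist1h1c, occurred in 19 members of the H1, H2A, H2B and H3 classes, and 7 H4 genes shared a second form. Within 100 bases of the stop codon, the motif was found in 44 of the 54 histone cluster genes with annotated bases after the stop codon and in 8 of 21099 other coding genes (0.0379%). Conversely, a poly(A) signal was found in 31.5% of these histone genes and in 81.3% of the other coding genes. A gene was scored on any of its annotated transcripts, so genes with more transcripts had more chances to match. Both elements were found in 11 members, the stem-loop alone in 22, the poly(A) signal alone in 2 and neither in 10, of which 6 have transcripts annotated to end at the stop codon.

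Between 35257156 and 47390899 reads were counted per library, and 3 counts, the smallest signal read here as different from 0, equalled 0.0604 to 0.0909 CPM, the counts scaled to a common library size by TMM. Floors cover counting error only. The deleted gene checked the labels, since Ppp2ca had 33 to 47 counts per knockout library against 8279 to 10654 per wild-type library. Macrophage markers were abundant, with sums of 7286 to 7474 CPM (PP2Ac KO) and 6162 to 6794 CPM (PP2Ac WT), and 2 of the 6 were higher and none lower in PP2Ac KO. The 4 fibroblast markers (Col1a1, Col1a2, Col3a1 and Dcn) were all lower in PP2Ac KO, with a summed level of 22.7 to 33.4 CPM against 74.9 to 117.7 CPM, and their part in the results below was not tested. The summed markers of neutrophils and their precursors, T and NK cells and B cells reached at most 1.89 CPM in a library, with Ly6g and Cd8a at 0 throughout. In bulk RNA, fewer cells of a type and less RNA per cell cannot be told apart.

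**Figure D1:**
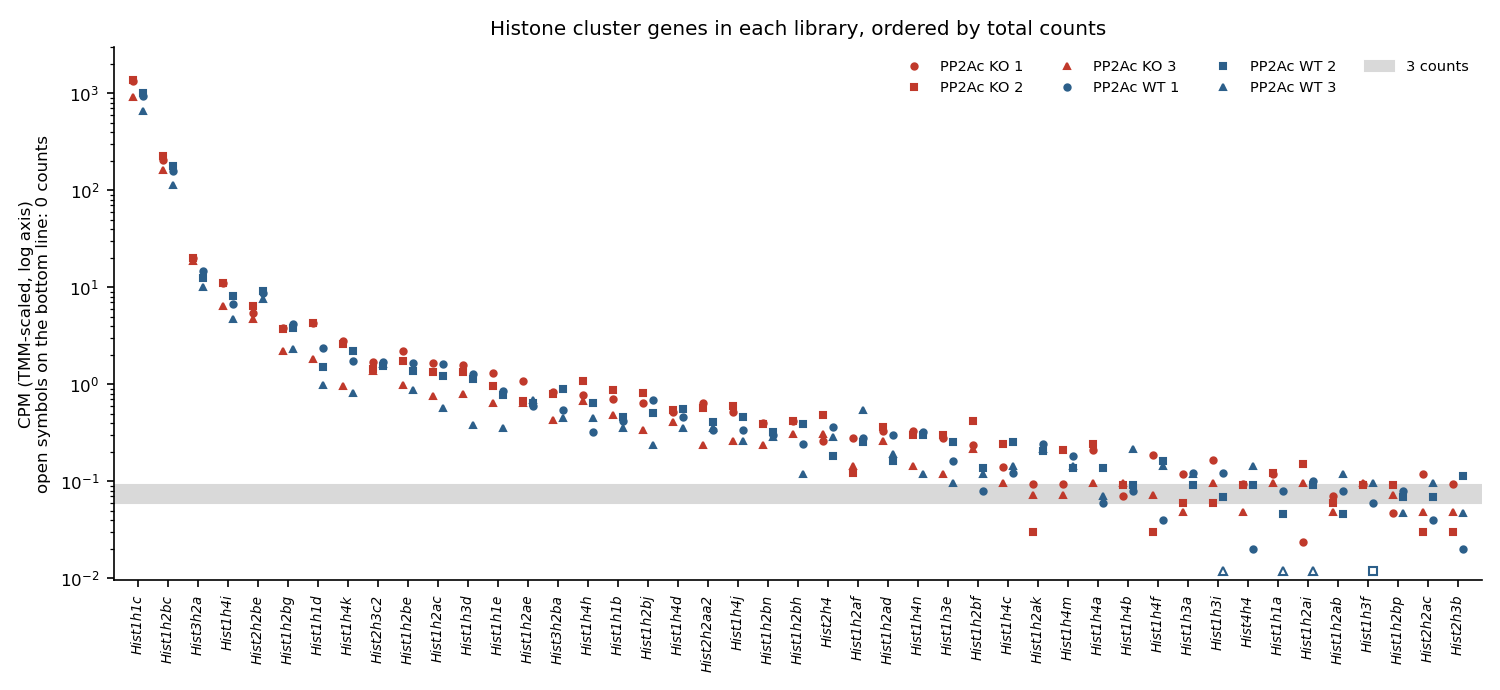
CPM of the 45 members in each library on a log axis, ordered by total counts, with PP2Ac KO in red, PP2Ac WT in blue and the replicate number as the symbol. Hist1h1c and Hist1h2bc stand above all other members in every library, and towards the right the members scatter above, within and below the grey band of 3 counts, and 4 values are 0.

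Linker histones of the H1 class were the most abundant in reads. Hist1h1c (chr13:23738808-23740367, + strand, 1 exon) had 56180, 45098 and 37779 counts in PP2Ac KO against 46116, 44234 and 27802 in PP2Ac WT. After scaling these were 1324, 1366 and 905 CPM (PP2Ac KO) and 928, 1017 and 663 CPM (PP2Ac WT). The libraries with the number 3 were the lowest of both genotypes, and because of PP2Ac KO 3 the groups overlapped, while every PP2Ac KO library lay above the WT library of its own number, by 1.43, 1.34 and 1.37 times. Means were 1199 ± 255 CPM (SD, n = 3) and 870 ± 184 CPM, and the log2 fold change of PP2Ac KO over WT (log2FC) was 0.46 with a standard error (SE) of 0.18, and its adjusted p of 0.0768 (edgeR quasi-likelihood test, Benjamini-Hochberg) missed the threshold of 0.05. Once the replicate number was a block in the fit, the value was again 0.46, with an SE of 0.04 and an edgeR adjusted p of 4.11e-06. By counts, the gene ranked between 63rd and 157th among all genes of a library.

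The other H1 genes had far fewer counts. Hist1h1d (chr13:23553262-23560686, + strand) had 181, 141 and 77 counts in PP2Ac KO and 118, 66 and 41 in PP2Ac WT, that is 4.27, 4.27 and 1.85 CPM against 2.38, 1.52 and 0.978 CPM. It was the gene with the largest rise among members called, with a log2FC of 1.07 (SE 0.37, edgeR adjusted p = 0.0466), although PP2Ac KO 3 lay below PP2Ac WT 1. The call was lost without PP2Ac KO 1, PP2Ac KO 2, PP2Ac WT 2 or PP2Ac WT 3 (edgeR adjusted p from 0.102 to 0.161), with RLE scaling (0.0502) and with limma-voom (0.0732), and it held with the block (log2FC 1.08, edgeR adjusted p = 2.17e-04). Its annotated transcript of 7425 bases runs 4884 bases past the stem-loop, and where in it the reads fell cannot be read from counts per gene.

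Hist1h1b had 30, 29 and 20 counts in PP2Ac KO against 21, 20 and 15 in PP2Ac WT, and its CPM did not overlap between the groups (0.479 to 0.878 against 0.358 to 0.46). Its log2FC was 0.71 (SE 0.29, edgeR adjusted p = 0.0830), and it passed with the block (edgeR adjusted p = 0.0471) but not with the block over genes with at least 15 counts (0.0633). Hist1h1e, with 55, 32 and 27 against 42, 34 and 15 counts, had a log2FC of 0.54 (SE 0.36, edgeR adjusted p = 0.268). Hist1h1a, named after its values were seen, had 5, 4 and 4 against 4, 2 and 0 counts, at the floor. In all 3 numbers, each of the 5 H1 genes, Hist1h1a at the floor included, had a higher level in PP2Ac KO than its PP2Ac WT counterpart, which 30.1% of all genes with at least 15 counts did. Summed over the class the levels were 1331, 1372 and 908 CPM (PP2Ac KO) and 932, 1020 and 665 CPM (PP2Ac WT), of which Hist1h1c made up 99.6% of the counts. Without Hist1h1c, chosen after seeing the data, the sums were 6.39, 6.24 and 3.07 CPM against 3.72, 2.81 and 1.69 CPM, a ratio of means of 1.91.

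Among H2A genes, which encode a core histone, Hist3h2a (chr11:58954685-58956830, + strand) was the one that rose. It had 844, 669 and 789 counts in PP2Ac KO and 728, 544 and 418 in PP2Ac WT. Its CPM were 19.9, 20.3 and 18.9 in PP2Ac KO against 14.7, 12.5 and 9.97 in PP2Ac WT, so that all PP2Ac KO libraries lay above all PP2Ac WT libraries. The log2FC was 0.67 (SE 0.12, edgeR adjusted p = 0.00261), from 0.53 to 0.81 when 1 library was left out, and it passed in every alternative fit at the same threshold. On the same strand, 708 bases of its exons are shared with Trim17, which had 106 counts in all and was itself higher (log2FC 0.86, SE 0.26, edgeR adjusted p = 0.0301). How the authors' counting treated such overlap is not given in the sources used here.

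The next H2A genes did not pass the test. Hist1h2ac had 71, 44 and 32 counts in PP2Ac KO and 81, 53 and 24 in PP2Ac WT, with a log2FC of 0.12 (SE 0.38). Hist1h2ae, with 46, 22 and 27 against 30, 28 and 29 counts, had a value of 0.32 (SE 0.26). Both sets of counts overlapped between the genotypes, as did those of Hist2h2aa2, with 27, 19 and 10 against 17, 18 and 15 counts and a log2FC of 0.37 (SE 0.37). All of the 50-base windows of Hist2h2aa2 also occur in other genes, Hist2h2aa1 and Gm20634 among them, so that its counts depend on how reads with several matches were assigned.

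Hist1h2ak and Hist1h2af had negative values, and both were singled out after their values were seen. Hist1h2ak, which was too low for the main test, had 4, 1 and 3 counts in PP2Ac KO and 12, 9 and 9 in PP2Ac WT, with no overlap in CPM. In a fit of all genes with at least 15 counts its log2FC was -1.66 (SE 0.49, edgeR adjusted p = 0.0278). Hist1h2af, with 12, 4 and 6 against 14, 11 and 23 counts, had -0.92 (SE 0.46, edgeR adjusted p = 0.146). Over the class, the sums were 24.2, 23.6 and 21.2 CPM (PP2Ac KO) and 18.3, 15.6 and 12.8 CPM (PP2Ac WT), the only class whose sums did not overlap, with a ratio of 1.48. Hist3h2a held 82.9% of these counts, and without it the ratio was 1.05 and the groups overlapped.

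Of the 8 H2B genes tested, 1 was lower (12.5%, beside 19.0% of all genes tested) and none was higher (beside 18.1%) in PP2Ac KO with genotype alone. Hist1h2bc (chr13:23684199-23692908, + strand) had 8657, 7446 and 6726 counts in PP2Ac KO and 7941, 7789 and 4718 in PP2Ac WT, that is 204, 226 and 161 CPM against 160, 179 and 113 CPM. As with Hist1h1c, both libraries numbered 3 were lowest and the groups overlapped, whereas within a number PP2Ac KO was 1.28, 1.26 and 1.43 times higher. Its log2FC was 0.39 (SE 0.17, edgeR adjusted p = 0.105), not called, and 0.40 with the block (SE 0.05, edgeR adjusted p = 3.95e-05).

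Hist2h2be (chr3:96221119-96223738, + strand), the H2B gene with the next most counts, was the one that fell. It had 233, 212 and 198 counts in PP2Ac KO and 435, 401 and 315 in PP2Ac WT, or 5.49, 6.42 and 4.74 CPM against 8.76, 9.22 and 7.51 CPM, with all PP2Ac KO libraries below all PP2Ac WT libraries. The log2FC was -0.62 (SE 0.13, edgeR adjusted p = 0.00506), between -0.51 and -0.73 with 1 library left out, and it too passed in each of those fits. None of its 50-base windows occurs in another gene (0%), which sets it apart from Hist1h2bc, with 30.1% of its windows shared.

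Hist1h2bg had 162, 123 and 93 counts in PP2Ac KO and 206, 164 and 97 in PP2Ac WT, and its log2FC of -0.08 (SE 0.25) turned to 0.14 without PP2Ac KO 3 and 0.09 without PP2Ac WT 1. Hist1h2be had 93, 58 and 41 counts against 83, 60 and 37, with a value of 0.31 (SE 0.32), and it shares 496 exonic bases with Hist1h1e and 320 with Gm11398 on the same strand. Neither passed the test. Hist1h2bf, named after its values were seen, had 10, 14 and 9 counts against 4, 6 and 5, which did not overlap in CPM, and in the fit of genes with at least 15 counts it had 1.33 (SE 0.46, edgeR adjusted p = 0.0528), and with the block added to that fit it passed (1.34, SE 0.48, edgeR adjusted p = 0.0433). The class summed to 218, 240 and 171 CPM (PP2Ac KO) and 176, 196 and 125 CPM (PP2Ac WT), a ratio of 1.27. Without Hist1h2bc the ratio was 0.852, with 14.1, 14.8 and 9.56 CPM against 16.5, 16.7 and 11.97 CPM, so that the direction of the H2B sum was that of 1 gene.

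H3 genes were the rarest in these libraries, with 802 counts in all. Hist2h3c2 had 73, 48 and 58 counts in PP2Ac KO and 85, 68 and 68 in PP2Ac WT, and a log2FC of -0.10 (SE 0.16, edgeR adjusted p = 0.666). Hist1h3d, with 68, 44 and 33 against 63, 49 and 16 counts, had 0.40 (SE 0.40). Hist1h3e, with 12, 10 and 5 against 8, 11 and 4 counts, had 0.44 (SE 0.48). Hist1h3a, with 24 counts in all, was too low for the main test. The groups overlapped for all 7 H3 genes, where 45.4% of all genes with at least 15 counts did not overlap. None of the 3 tested passed, beside 37.1% of all genes tested (50.9% with the block), and so few genes say little about the class. The class sums of 4.08, 3.33 and 2.59 CPM (PP2Ac KO) and 3.46, 3.22 and 2.36 CPM (PP2Ac WT) overlapped, and their log2 ratio of 0.14 became -0.07 when library totals alone were used for scaling.

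H4 is the class in which all 13 annotated genes reached 15 counts. Hist1h4i (chr13:22040636-22041362, - strand) held 63.0% of the counts of the class, with 467, 365 and 266 in PP2Ac KO and 336, 357 and 196 in PP2Ac WT. Its CPM were 11.01, 11.06 and 6.37 against 6.76, 8.21 and 4.68, overlapping because PP2Ac KO 3 lay below PP2Ac WT 1 and PP2Ac WT 2. The log2FC was 0.53 (SE 0.24, edgeR adjusted p = 0.116) and 0.54 with the block (SE 0.09, edgeR adjusted p = 3.45e-04).

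Hist1h4h had 33, 36 and 28 counts in PP2Ac KO and 16, 28 and 19 in PP2Ac WT and did not overlap in CPM (0.671 to 1.09 against 0.322 to 0.644). Its log2FC of 0.83 (SE 0.31, edgeR adjusted p = 0.0640) passed with the block (adjusted p = 0.0192). Hist1h4k, of whose 50-base windows 71.5% occur in other genes, had 120, 87 and 40 counts against 87, 95 and 34 and a value of 0.42 (SE 0.42, edgeR adjusted p = 0.469, or 0.0510 with the block). Hist1h4d, with 22, 18 and 17 counts against 23, 24 and 15, had 0.09 (SE 0.27), a sign that reversed when trends with GC content and length were removed (-0.03). The class summed to 17.0, 17.6 and 9.61 CPM against 10.8, 13.4 and 7.82 CPM, overlapping between genotypes, with ratios of 1.57, 1.32 and 1.23 within the numbers 1, 2 and 3.

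**Figure D2:**
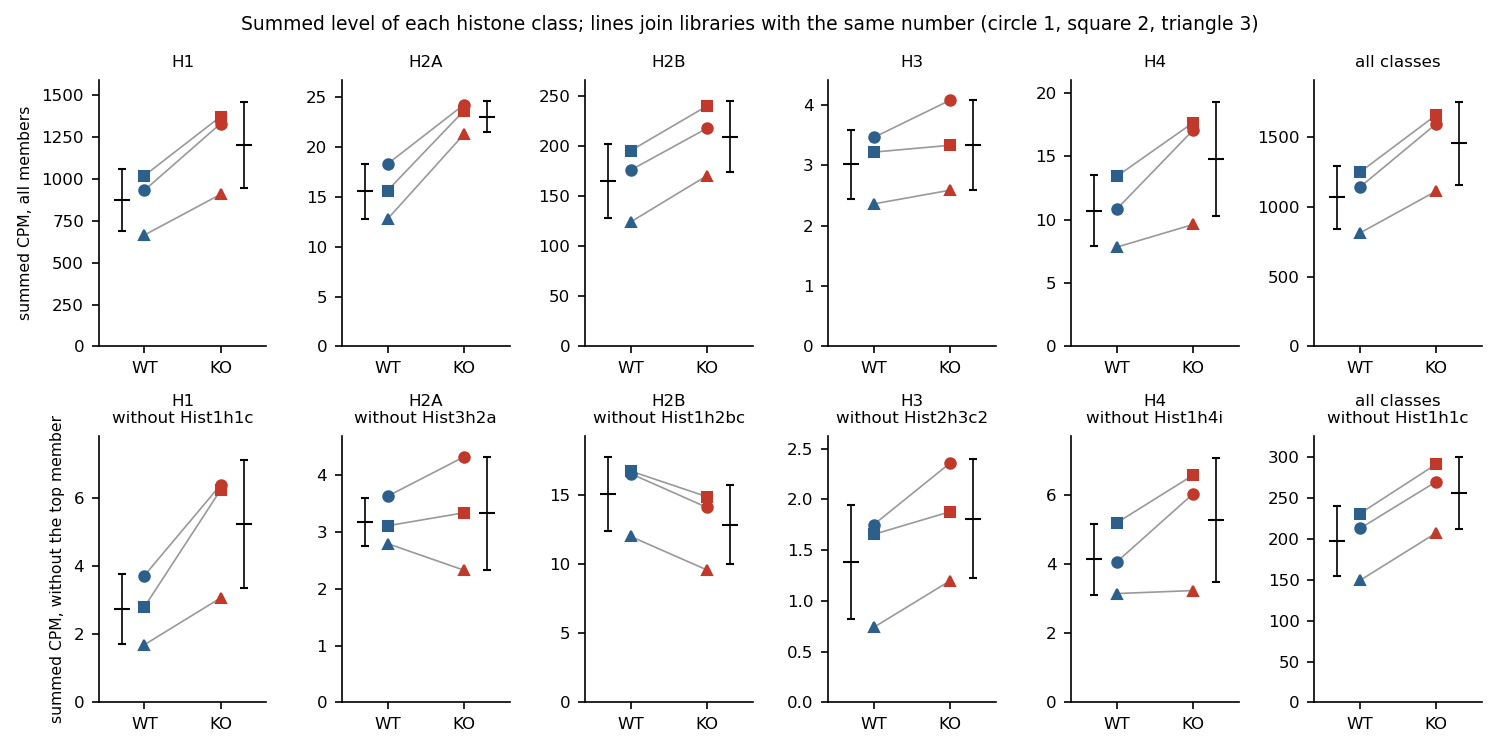
Summed CPM of each histone class per library, with all members in the upper row and without the member with the most counts in the lower row; lines join libraries of the same number and black bars show means ± SD (n = 3). Each line rises from WT to KO in the upper row, and in the lower row the H2B lines and the H2A line of number 3 fall.

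Counted over members, few passed. Of the 45 members, 28 had enough counts for the test, and the 17 that did not had 15 to 48 counts each. In the fit of genotype alone, 2 of the 28 were higher and 1 was lower at an adjusted p under 0.05 (edgeR), 10.7%, while 18.1% of all 13680 genes tested were higher, 19.0% lower and 37.1% changed in either direction. At an unadjusted p under 0.05 there were 7 members (25.0%), against 46.5% of all genes tested. No member, against 3.36% of genes higher and 2.99% lower, passed the stricter limits of an adjusted p under 0.01 with a log2FC beyond 1 in size. When all genes with at least 15 counts were tested, so that all 45 members entered, 2 were higher and 2 lower, beside a background of 15% and 15.9%. The number of members higher changed when 1 library was left out. It was 6 without PP2Ac KO 3, and 1 without PP2Ac KO 1, PP2Ac KO 2 or PP2Ac WT 3. The number lower was 2 without PP2Ac WT 2 or PP2Ac WT 3. Shares of all genes called in those fits are not given here, and whether these shifts are particular to members was not tested.

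Comparing libraries within a replicate number changed these counts. With the number as a block, 7 of the 28 tested members were higher (25.0% beside a background of 24.4%) and Hist2h2be alone was lower (beside 26.4%). The 7 were Hist1h1c, Hist1h1d, Hist1h1b, Hist3h2a, Hist1h2bc, Hist1h4i and Hist1h4h. Without a fit, but on TMM-scaled CPM, 21 of the 45 members (46.7%) had a higher CPM in PP2Ac KO than in PP2Ac WT in each of the 3 numbers and 5 (11.1%) a lower one, where 30.1% and 34.7% of the genes with at least 15 counts did so. The groups did not overlap for 5 members higher in PP2Ac KO (background 21.2%) and 2 members lower (background 24.2%).

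Directions were counted apart from the calls. Of the 28 tested members 24 had a positive log2FC, and their median was 0.36, where the median of all genes tested was -0.02. By class the medians were 0.62 for H1, 0.34 for H2A, 0.22 for H2B, 0.40 for H3 and 0.36 for H4. With upper-quartile scaling, which moved the median of all genes to -0.09, the median of members was 0.30. Over all 45 members, in the fit that kept genes with at least 15 counts, the median was 0.31 and 32 values were positive. Members were chosen with results of these data known, so these medians describe them and carry no test.

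**Figure D3:**
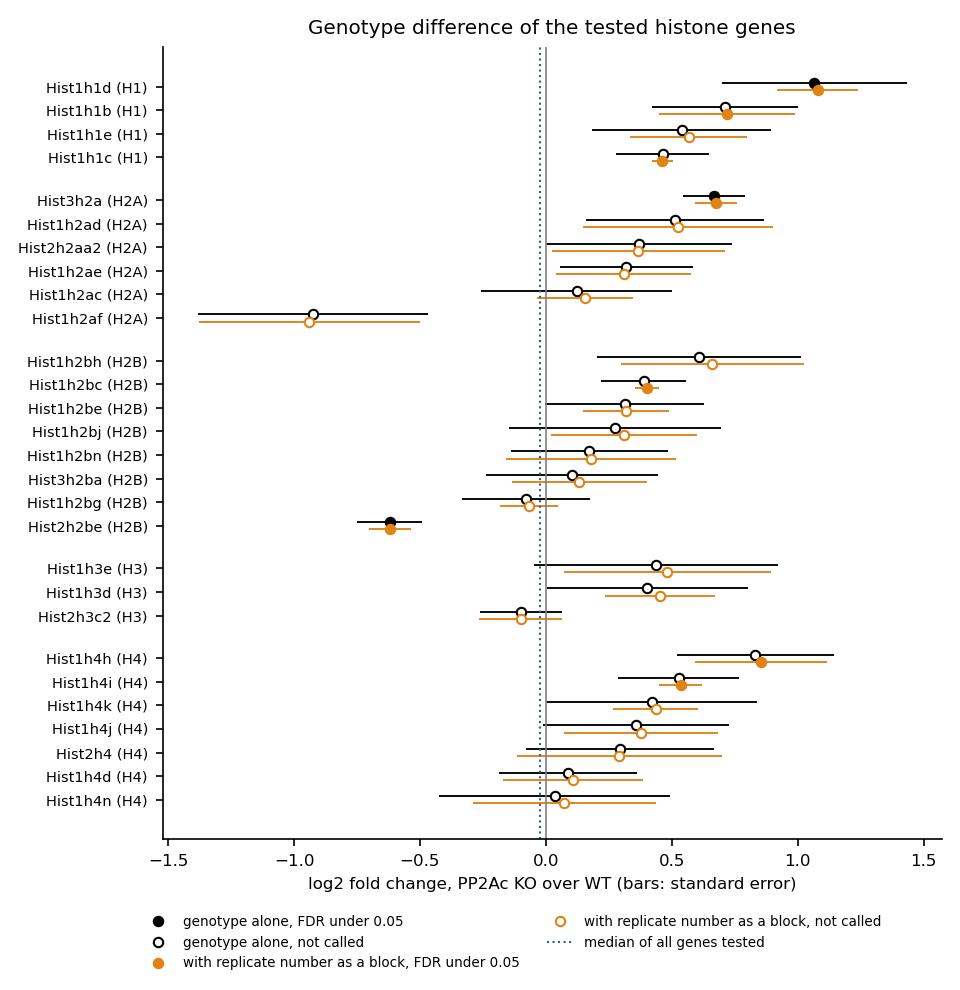
log2FC (log2 fold change) of PP2Ac KO over WT with its standard error for the 28 tested members, by class, in the fit of genotype alone (black) and in the fit blocked by number (orange); filled points passed an adjusted p of 0.05. Most points lie to the right of 0 and of the median of all genes (dotted line), Hist2h2be is the one called gene to the left, and the orange bars of the abundant genes are the shorter ones.

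Levels of the members also differed by replicate number. In PP2Ac KO, 26 of the 28 tested members had their lowest CPM in library 3, and in PP2Ac WT 21 had, the same 21 in both genotypes, whereas of all genes tested 32.6% and 37.2% had their lowest value there and 19.98% in both. The members together summed to 1594, 1657 and 1113 CPM (PP2Ac KO) and 1141, 1248 and 812 CPM (PP2Ac WT). These groups overlapped, and their ratios within the numbers 1, 2 and 3 were 1.40, 1.33 and 1.37. With Hist1h1c and Hist1h2bc left out, the other 43 members summed to 65.8, 65.6 and 46.1 CPM against 52.8, 51.7 and 36.6 CPM, with ratios of 1.25, 1.27 and 1.26. Both sets of ratios depend on the TMM factors, 0.910 to 0.937 in PP2Ac KO and 1.05 to 1.10 in PP2Ac WT, and are smaller on library totals. There all members made up 0.145%, 0.155% and 0.104% of the counts in PP2Ac KO and 0.120%, 0.136% and 0.0891% in PP2Ac WT. The other 43 members held 2791 of 46647682, 2167 of 35257156 and 1922 of 44530094 counts in PP2Ac KO. In PP2Ac WT they held 2623 of 47390899, 2250 of 40000482 and 1535 of 38235133 counts. What the libraries numbered 3 share is not given in the sources used here.

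Per length, members spanned more than 4 orders of magnitude. Hist1h1c had 768 CPM per kb of exon in the knockout and 557 in the wild type, and Hist1h2bc had 170 and 130. Hist1h4i (13.04 and 9.01), Hist3h2a (9.17 and 5.77), Hist1h4k (6.86 and 5.07), Hist1h2bg (5.27 and 5.52) and Hist2h2be (2.12 and 3.24) came next, in CPM per kb in PP2Ac KO and PP2Ac WT. Between the adjacent Hist1h4k and Hist1h2bg the order was not the same in both genotypes. These ranks depend on annotated exon lengths, which were 312 bases for Hist1h4k and 2620 for Hist2h2be. In CPM, Hist1h4k (2.14 in PP2Ac KO and 1.58 in PP2Ac WT) lay below Hist1h2bg (3.26 and 3.41) and Hist2h2be (5.55 and 8.50).

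By transcript end, the 13 members with a poly(A) signal held 84.8% of the counts and the 32 without held 15.2%, most of it on Hist1h2bc. These shares turn on Hist1h1c, which had 257209 of the 266109 counts with a signal, and without it members with a signal held 15.7% of the counts. The median total was 164 counts with a signal and 65.5 without. The median level per length was 1.03 CPM per kb in the former and 0.391 in the latter, both including members near the floor. The genotype difference had a median log2FC of 0.34 over the 10 tested members with a signal and 0.38 over the 18 without. The 13 members with a stem-loop and fewer than 100 annotated bases past it had between 17 and 160 counts each.

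**Figure D4:**
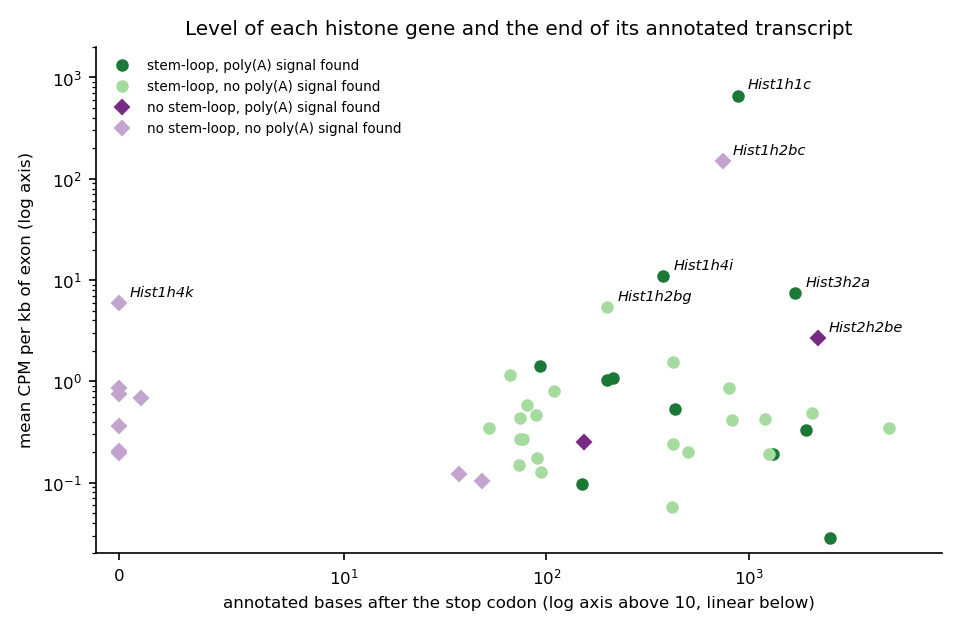
Mean CPM per kb of exon (mean of the genotype means, log axis) of each of the 45 members against the annotated bases after its stop codon (log axis above 10, linear below), with colour and shape for the elements found. Of the 5 members with the most counts, labelled with Hist1h4k and Hist1h2bg, 4 carry a poly(A) signal and Hist1h2bc carries neither element.

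Members share sequence, which limits how far single genes can be told apart. In 17 members more than 50% of the 50-base windows occur in another gene, and these held 0.528% of the counts. They also had fewer counts, with a median of 50 against 147.5 for the other 28. Whether reads with several matches were dropped or assigned is not given in the sources used here.

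Some H2A and H2B genes lie head to head, and 5 such pairs of members were found with start sites within 400 bases on opposite strands. The partners differed in counts, with 305 for Hist1h2ac beside 43277 for Hist1h2bc at 250 bases, and 17 for Hist2h2ac beside 1794 for Hist2h2be at 238 bases. In the other pairs the counts were closer, with 182 for Hist1h2ae beside 845 for Hist1h2bg, 38 for Hist1h2ak beside 81 for Hist1h2bn and 48 for Hist1h2bf beside 67 for Hist1h2ad. They also differed in log2FC in the fit of genes with at least 15 counts, as for Hist1h2ak (-1.66) beside Hist1h2bn (0.17). Hist1h2bf (1.33) and Hist1h2ad (0.52) were both positive, and Hist1h2ae (0.32) and Hist1h2bg (-0.08) were not alike in sign. These pairs were picked by position, after the values were known, and differences within a pair were not tested.

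The limit of 15 counts fell among genes with a few reads per library. Just inside, Hist2h3b had 15 counts, and Hist1h2bp and Hist2h2ac had 17 each. Just outside, Hist1h2bb had 11, Hist1h2bk 10 and Hist3h2bb-ps 9. A library held at most 6 counts of any of these genes, and 7 of the 70 histone cluster genes had no count at all.

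Genes for histones that are not made in S phase alone were listed for comparison, as replication-independent histones, and did not move in 1 direction. Of 11 such genes 3 were higher, 4 lower and 4 not called in PP2Ac KO, with a median log2FC of -0.07. Of all genes tested, 18.1% were higher and 19.0% lower. H3f3b, a gene of the variant H3.3, had the highest CPM, at 1154 ± 36.1 CPM against 799.9 ± 42.4 CPM (SD, n = 3, PP2Ac KO against WT) and with a log2FC of 0.53 (edgeR adjusted p = 5.02e-04). H2afy2 (0.77) and H2afy (0.31), genes of macroH2A, were also higher. Cenpa (-0.76), the histone H3 variant of centromeres, H2afx (-0.77), whose product is phosphorylated at DNA breaks, H2afv (-0.49) and H2afz (-0.31), genes of H2A.Z, were lower. H3f3a (-0.05), H2afj (-0.07), H1f0 (0.32) and H1fx (-0.37) did not pass, and of these H1f0 (edgeR adjusted p = 2.77e-04) and H1fx (0.0421) passed with the block.

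Factors that make, process or degrade histone mRNA were listed as well. Of the 31 symbols listed, 27 were in the table and tested. Among these, 5 were higher (beside 18.1% of all genes tested) and 2 lower (beside 19.0%), with a median log2FC of 0.02. Slbp, the gene of stem-loop binding protein, had 23.1 ± 1.49 CPM against 25.1 ± 2.21 CPM (PP2Ac KO against WT, log2FC -0.13, SE 0.08, edgeR adjusted p = 0.267). Npat (0.20, edgeR adjusted p = 0.0646, or 0.0158 with the block), which activates histone gene transcription, was not called with genotype alone. Casp8ap2 (0.04, SE 0.10), needed for histone gene expression, was not called, and its sign was reversed by upper-quartile scaling (-0.03). Among genes that passed, the largest changes were those of Lsm11 (-0.81), a subunit of the U7 particle that cuts histone pre-mRNA, and of Tut7 (0.76) and Tent2 (0.74), which add nucleotides to the ends of RNAs.

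Of 24 chaperones and importers of histones, 8 were lower (beside 19.0% of all genes tested) and 3 higher (beside 18.1%), with a median log2FC of -0.10. Hat1 (0.92), which acetylates new H4, and Daxx (0.88), a chaperone of H3.3, were higher, and Asf1b (-0.68), a chaperone of H3 and H4, was lower. Both subunits of chromatin assembly factor 1 that are particular to it, Chaf1a (-0.59) and Chaf1b (-0.40), named after their values were seen, were lower as well.

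Most genes of mitosis and many of S phase were lower in PP2Ac KO. For this list and the next, 19.0% of all genes tested were lower and 18.1% higher. Of 55 S-phase and DNA replication genes, 25 were lower, 3 higher and 27 not called in PP2Ac KO, with a median of -0.26. Slbp and Mcm2 were counted both here and in a list above. Rrm2 (-2.05), a subunit of ribonucleotide reductase, Clspn (-1.65), a checkpoint mediator, and Ccna2 (-1.53), cyclin A2, had the largest changes. All 20 genes of G2 and mitosis passed, 18 lower and 2 higher, with a median of -1.18, and Cenpf (-2.003), Ccnb2 (-1.71) and Anln (-1.70) had the largest changes. The summed level of the G2 and mitosis genes was 187 to 201 CPM in PP2Ac KO and 271 to 329 CPM in PP2Ac WT, and that of the S-phase genes 1104 to 1107 against 1208 to 1238 CPM, without overlap. The fibroblast markers were lower along with these lists, and their part in this difference was not tested.

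**Figure D5:**
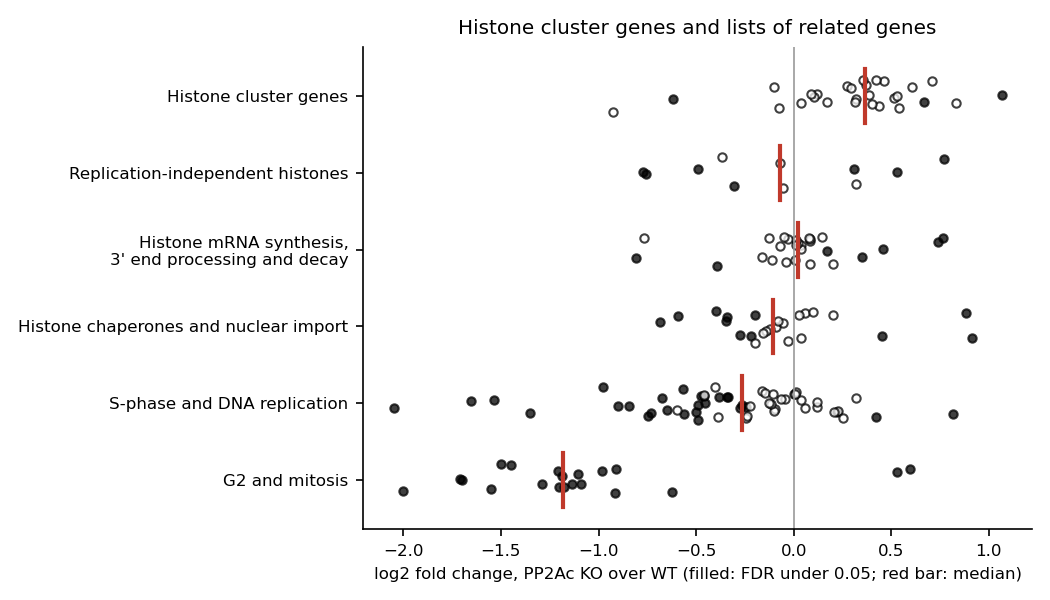
log2FC of PP2Ac KO over WT for the tested members and for each gene of the lists, with filled points for an adjusted p under 0.05 and red bars for medians. The median of the members (0.36) lies to the right of those of the other lists, and that of G2 and mitosis (-1.18) lies farthest to the left.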

How the data were processed

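Poly(A)-selected RNA of BMDM was sequenced from both ends in 6 libraries. The authors deposited 1 table of raw counts per gene and library, with no normalization, and every column of counts was used (0 columns were left out). The submitters' processing notes name mm10 and GRCm38, fastp 0.20.0, kallisto 0.46.1, STAR 2.7.1a, HTSeq 0.11.2, edgeR 3.34.0 and limma 3.48.3; which of them made the counts, the annotation release, the strand setting and the handling of reads with several matches are not given in the sources used here. Of the symbols, 98.3% occur in GENCODE M21, from which coordinates, exon lengths and transcript sequences were taken.

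Counts went into edgeR 4.0.16 under R 4.3.3 (TMM, glmQLFit, glmQLFTest) with genotype as the only term. Of all genes, filterByExpr (minimum count 10, minimum total 15) kept 13680, over which p-values were adjusted by Benjamini-Hochberg. CPM use the TMM factors (0.910 to 0.937 in PP2Ac KO and 1.05 to 1.10 in PP2Ac WT), and errors are SD over 3 libraries. For 3 against 3 libraries, the smallest p of an exact permutation test is 0.1, so none was run. The fits were tested on simulated data. Pairs of libraries of 1 genotype differed by 9.50 to 44.9 times the variance of counting (chi-square per degree of freedom), so none was a library merely sequenced again. Separate libraries of the same RNA or culture cannot be recognized in this way.

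Both genotypes carry replicate numbers 1, 2 and 3. Over 13680 genes, libraries of the same number deviated together from their group means (correlations 0.27, 0.13 and 0.32), so a fit with the number as a block is given where it changed a call.

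The members and lists were chosen with earlier results of these data known. Named were, in each class, the 4 members with the most counts, called members, the 3 genes on each side of the limit of 15 counts, Ppp2ca, Slbp, Npat and Casp8ap2, the replication-independent histones, and in every other list the 3 genes with the largest change that passed; others were named after their values were seen. Alternatives were RLE and upper-quartile scaling and library totals, other filters, the block, loess removal of GC and length trends (span 0.3), stricter limits, DESeq2 1.42.0, limma-voom (limma 3.58.1) and each library left out.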

Additional observations from a re-analysis of the deposited data

How the results depend on the processing

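The fit of genotype alone called 2 members higher and 1 lower. The number higher was 1 with RLE scaling or limma-voom, 6 with no filter on low counts, 4 with DESeq2, 7 with the replicate block, 7 with the block after removal of GC and length trends, and 7 with the block over genes with at least 15 counts, a combination chosen after seeing the data. Of all genes, 18.1% were higher with genotype alone and 24.4% with the block. The share was 29.2% with trends and block, and 20.5% with at least 15 counts and the block. Counts of members, also by class below, stand beside these shares, which are not given here for the remaining fits. The number lower was 2 with no filter, 2 with at least 15 counts and 2 with the block on those genes, and both numbers were 0 at an adjusted p under 0.01 and a log2FC beyond 1. With 1 library left out, 1 to 6 were higher and 1 to 2 lower. By class, in the order RLE, no filter, block, trends with block, DESeq2, limma-voom, at least 15 counts with block, and strict limits, H1 members higher numbered 0, 2, 3, 2, 2, 0, 2 and 0 (1 with genotype alone), and 0 to 3 with a library left out, 3 of them without PP2Ac KO 3 and 1 without PP2Ac WT 1. For H2A, 1 was lower with no filter, with at least 15 counts and with those under the block (0 with genotype alone), 0 to 1 with a library left out, and 0 were higher at the strict limits. For H2B, 1 was higher with no filter, the block, trends with block and DESeq2, 2 with at least 15 counts and the block (0 with genotype alone), 0 to 1 with a library left out, and 0 were lower at the strict limits. For H4, 2 were higher with no filter, 2 with the block, 3 with trends and block, 2 with at least 15 counts and the block (0 with genotype alone), and 0 to 1 with a library left out. The cause of these shifts was not tested.

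Without the member with the most counts (chosen after seeing the data), the log2 ratio of class sums was 0.93 for H1, 0.0669 for H2A and -0.23 for H2B. With all H2A members included, Hist3h2a among them, the log2 ratio of the H2A sums was 0.57, and 0.35 on library totals alone. Of the lists, factors of histone mRNA had 5 lower with upper-quartile scaling, chaperones 5 higher and S-phase genes 5 higher with trends removed, and S-phase genes 6 higher with the block. Over all genes tested, 22.3% were higher with trends removed and 24.4% with the block. Such shares are not given here for upper-quartile scaling or for the fits with 1 library left out. With 1 library left out, the replication-independent histones had 2 to 5 lower, factors of histone mRNA 3 to 6 higher and 1 to 2 lower, S-phase genes 1 to 5 higher and G2 and mitosis genes 1 to 2 higher. The extremes were, for the replication-independent histones, 2 lower without PP2Ac KO 1 or PP2Ac WT 2, for factors of histone mRNA 3 higher without PP2Ac KO 1, PP2Ac KO 2, PP2Ac WT 2 or PP2Ac WT 3, for S-phase genes 5 higher without PP2Ac WT 1 and 1 without PP2Ac KO 2, PP2Ac KO 3, PP2Ac WT 2 or PP2Ac WT 3, for factors of histone mRNA 1 lower without PP2Ac KO 2, and for G2 and mitosis 1 higher without PP2Ac KO 1, PP2Ac WT 2 or PP2Ac WT 3.

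Signs reversed only for genes not called. Casp8ap2 was -0.0256 and Hist1h4n -0.0265 with upper-quartile scaling, and with trends removed Hist1h4d was -0.0333 (-0.0162 under the block) and Hist1h4n -0.0105. With 1 library left out, log2FC spanned -0.0171 to 0.154 for Casp8ap2, -0.20 to 0.0163 for H2afj, -0.19 to 0.48 for Hist1h2ac, -0.29 to 0.14 for Hist1h2bg, -0.0291 to 0.65 for Hist1h2bj, -0.0503 to 0.24 for Hist1h4d, -0.27 to 0.35 for Hist1h4n and -0.0841 to 0.44 for Hist3h2ba. The replicate block left 47 of 55 single genes on their side of the threshold and brought 8 past it, and no call was lost under it. Depth limits the 24 members with under 100 counts, of which 17 were not tested.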
